A study of Rattus norvegicus with 12 samples.

Results

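The series exposed primary rat cardiomyocytes to SIN-1 (3-morpholinosydnonimine), a donor of the oxidant peroxynitrite, and the question taken up here is which transcripts differed between 4 h and 8 h of exposure. The 2 groups compared were the 3 arrays labelled 4 h and the 3 arrays labelled 8 h, 6 of the 12 arrays in the series; 3 arrays of control cells and 3 of cells treated with SIN-1 for 70 min supplied reference levels. All groups were wild type by their labels and were grown in the same serum-rich medium. The labels name no vehicle, SIN-1 dose or culture time for the control, and no age of the animals. All 18166 genes with a single symbol were tested, each through its brightest probe over the 12 arrays, and values are log2 expression. Nothing beyond the words "biological triplicates" says that the cultures were separate, so p-values measure the spread between these samples.

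SIN-1 decays in culture medium and yields nitric oxide and superoxide together, which combine to peroxynitrite, an oxidant that nitrates tyrosines and oxidises thiols. Cells meet such stress through redox-sensed programmes such as that of the transcription factor NRF2, and oxidants also act on growth factor and mitogen-activated protein (MAP) kinase signalling, on the cytoskeleton and on progress through the cell cycle.

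The labelled cell type was set beside marker genes, using as a yardstick the median of 4.33 over probes that the platform table does not list. Of 21 cardiomyocyte markers, 3 had a mean over the 12 arrays at or below it, the myosin heavy chains Myh7 (3.57) and Myh6 (3.78) and the transcription factor Tbx5 (4.23). The sarcomere genes Actn2 (4.33), Myl3 (4.40), Mybpc3 (4.45) and Ttn (4.49) lay just at or above it, while the other 14 were higher. Of these 14, Csrp3 (4.77), Myoz2, Myl7, Des and Tnni3 (5.57) were still under the median of 5.75 over all gene means. Among those above 5.75 were the thin filament genes Tpm1 (9.53), Tnnc1 (7.14) and Tnnt2 (5.84). The transcription factors Mef2c (9.05), Hand2 (6.92), Gata4 (6.09) and Nkx2-5 (5.98) were above it too. Of 21 fibroblast and matrix markers 1 was at or below that median, as were 2 of 11 endothelial, 0 of 10 smooth muscle and pericyte, and 9 of 16 macrophage and leukocyte markers. The median level was 5.28 for the cardiomyocyte list, under the median of 5.75 over all gene means. It was 8.56 for fibroblast and matrix, 7.84 for smooth muscle and pericyte, 4.48 for endothelial and 4.25 for macrophage and leukocyte markers. The markers were thus mixed: 18 of 21 cardiomyocyte markers lay above the yardstick, but Actn2, Myl3, Mybpc3 and Ttn only just. Both cardiac myosin heavy chains were near the background of these arrays. The highest fibroblast and matrix markers were Vim (13.13) and Col1a1 (12.77) and the highest smooth muscle marker was Tagln (12.46), against 9.53 for Tpm1. The material is called SIN-1-treated cells below. In such bulk RNA, fewer cells of a type and less RNA per cell cannot be told apart.

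Between 4 h and 8 h, 637 of the 18166 genes (3.51%) changed at an adjusted p under 0.05 (limma's moderated test with Benjamini-Hochberg adjustment over all genes), and these are called changed below. Of them 358 (1.97% of all genes) were higher at 8 h and 279 (1.54%) were lower. These shares are the reference for every count of called list members below, but they are not a fully like one. Called genes were mostly bright, with median control levels of 7.96 for the higher and 7.90 for the lower, against 5.75 over all gene means. Genes at or above that 5.75, tested alone, gave 813 calls, and many lists are bright too. Folds were modest, with 86 of the higher genes (0.473% of all genes) and 63 of the lower (0.347%) reaching 1.5-fold. The median log2 change was 0.44 among the higher and -0.43 among the lower genes, against -0.01 over all genes. All 3 values at 8 h lay above all 3 at 4 h in 1758 genes (9.68%) and below them in 1639 (9.02%). Without 8 h replicate 2, 299 genes were called, and 298 of these were among the 637; the higher genes then numbered 173 and the lower 126. Without 4 h replicate 3 there were 216 higher genes, and without 4 h replicate 2 there were 182 lower genes. Of the called genes 56.2% were higher, against 66.3% after centring each array on its median and 46.4% without 4 h replicate 3, so which direction was the more frequent differed between settings.

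The called genes tended to be displaced from control at 4 h and close to control at 8 h. The 358 higher genes had a median level of 7.96 in control, 7.55 at 70 min, 7.57 at 4 h and 8.04 at 8 h. The 279 lower genes had medians of 7.90 in control, 8.35 at 70 min, 8.33 at 4 h and 7.82 at 8 h. These medians are a description, since the genes were selected on their 4 h and 8 h arrays. The 70 min and control arrays took no part in that difference, but they entered the shared estimate of spread behind the calls. The same estimate served the 70 min comparison, so a gene with a low spread was more readily called in both. The shares over all genes are therefore not a fully like reference. Of the 358 genes higher at 8 h than at 4 h, 218 (60.9%) were called lower at 70 min than in control and 19 (5.3%) higher, where 7.81% and 6.76% of all genes were called lower and higher at 70 min. Of the 279 lower genes, 193 (69.2%) were called higher at 70 min and 8 (2.9%) lower. Read the other way, those 218 genes were 15.4% of the 1419 lower at 70 min and those 193 were 15.7% of the 1228 higher.

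**Figure D1:**
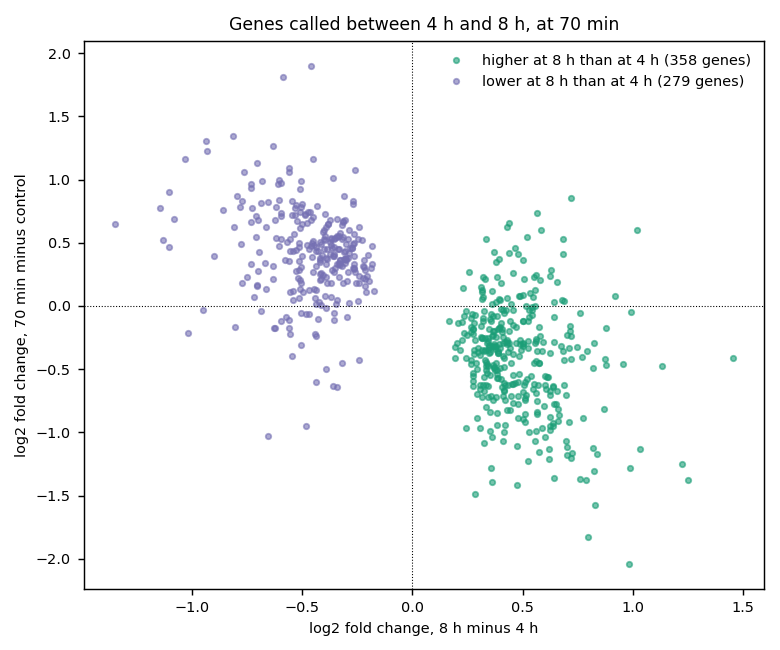
Each point is 1 of the 637 genes called between 4 h and 8 h, with its log2 fold change from 4 h to 8 h on the horizontal axis and its log2 fold change from control to 70 min, from other arrays, on the vertical axis. Most of the 358 genes higher at 8 h lie below 0 at 70 min, and most of the 279 lower genes lie above 0.

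Ankrd1, a cardiac ankyrin repeat protein responsive to stretch and a target of the YAP and TEAD transcription factors, had the largest change of any gene named. Its values were 7.81, 7.66 and 7.76 at 4 h and 9.25, 9.24 and 9.12 at 8 h, beside 9.18, 9.03 and 9.15 in control. The 8 h arrays did not overlap with those of 4 h and overlapped with those of control, and the rise was 2.74-fold (log2 1.46 ± 0.07 SE, n = 3 and 3, adjusted p = 5.43e-09). Egr1, an immediate early zinc finger transcription factor, stood at 7.11, 7.07 and 6.86 at 4 h and at 8.40, 8.27 and 8.12 at 8 h. It had been at 6.91, 6.96 and 7.11 at 70 min already, against a mean of 8.37 in control, and rose by 1.25 ± 0.09 (SE) from 4 h to 8 h (adjusted p = 1.21e-06). Edn1, which encodes the vasoconstrictor peptide endothelin-1, measured 7.78, 7.70 and 7.37 at 4 h and 8.61, 8.72 and 8.46 at 8 h. Its lowest mean was at 70 min, 6.77 against 8.81 in control, and its log2 rise from 4 h to 8 h was 0.98 ± 0.11 (SE; adjusted p = 4.72e-05).

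**Figure D2:**
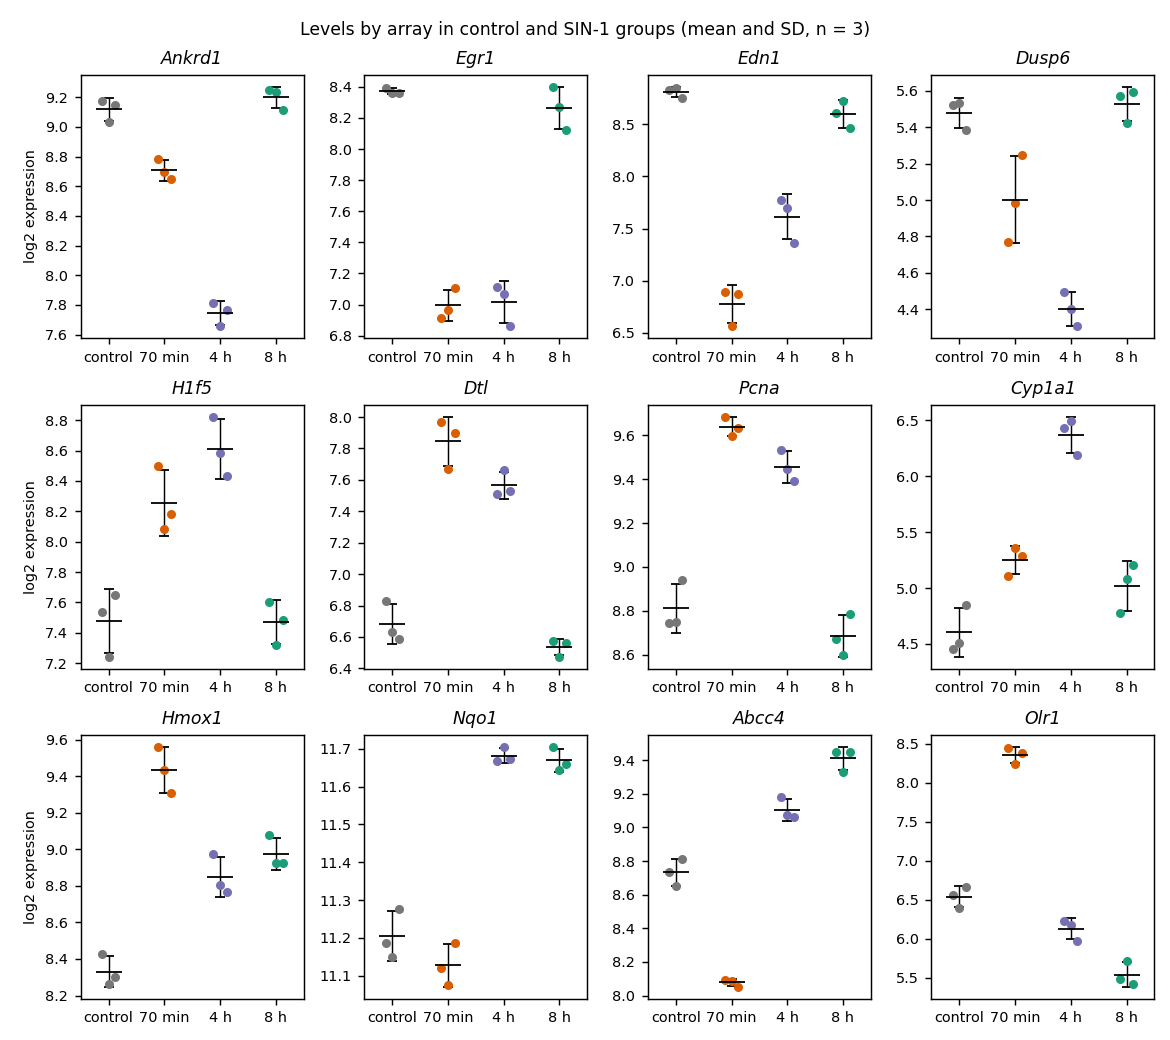
Log2 expression of 12 genes (vertical axes, each with its own range) in control, 70 min, 4 h and 8 h (horizontal axis); dots are the 3 arrays of a group and bars the mean and SD. Ankrd1, Egr1, Edn1 and Dusp6 are low at 4 h and near control at 8 h. H1f5, Dtl, Pcna and Cyp1a1 are high at 4 h and lower at 8 h. Hmox1, Nqo1 and Abcc4 are above control at 8 h, and Abcc4 is below control at 70 min.

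Several genes that restrain MAP kinase signalling rose in the same interval. Of 16 measured members of that feedback list, 4 were called higher and 1 lower, where 1.97% and 1.54% of all genes were. The list median was 0.26. Dusp6, a phosphatase of the kinase ERK, had values of 4.49, 4.40 and 4.31 at 4 h and 5.57, 5.42 and 5.60 at 8 h, with 5.52, 5.53 and 5.38 in control. The fitted difference was 1.13 ± 0.13 (SE; adjusted p = 7.3e-05), but the 4 h arrays lay at the yardstick of 4.33, near background, so its size is uncertain. Dusp1, a phosphatase of several MAP kinases, rose by 0.70 (8.51 at 4 h to 9.21 at 8 h; adjusted p = 2.08e-05), and the receptor kinase inhibitors Spry2 and Errfi1 rose by 0.68 and 0.38. Dusp10, a phosphatase directed at the stress kinases p38 and JNK, went the other way: 9.36, 9.21 and 9.39 at 4 h fell to 8.94, 8.70 and 8.83 at 8 h (adjusted p = 0.00075). Its 4 h arrays were thus the high ones, and in control it had measured 8.79, 8.80 and 8.85.

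Immediate early genes were split. Of 28 measured members 5 were higher and 1 lower, with a median of -0.01, and the lower count was 0 without 8 h replicate 1 and 2 without 4 h replicate 3. Beside Egr1 the higher members included Srf, the serum response factor, at 0.66 (7.36 to 8.02; adjusted p = 0.000487), and Ccn1, a matricellular protein, at 0.72 (10.17 to 10.89; adjusted p = 1.91e-06). Fos, Nr4a1 and Atf3, which belong to the same class, were not called, at 0.28, 0.31 and -0.15.

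Among 13 YAP and TEAD genes 7 were called higher and 1 lower, with a median of 0.24. Besides Ankrd1 and Ccn1, Nuak2, a kinase related to AMPK, had values of 5.95, 5.95 and 5.91 at 4 h and 6.77, 6.49 and 6.47 at 8 h, a rise of 0.64 (adjusted p = 0.00327). Crim1, a transmembrane protein that binds bone morphogenetic proteins, was the member that fell, by 0.38 (adjusted p = 0.00101). The factor gene Tead1 was not called, at -0.11. Without 8 h replicate 2 the count of higher members was 4 of 13.

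Other genes with large rises encode receptors, kinases and enzymes. Adgrl3, an adhesion G protein-coupled receptor, went from 6.11 ± 0.10 to 7.33 ± 0.13 (SD, n = 3; adjusted p = 3.93e-06). Epha2, an ephrin receptor tyrosine kinase, rose by 0.99, from 5.94 ± 0.14 to 6.93 ± 0.16, against 7.11, 6.96 and 6.94 in control (SD, n = 3). Nuak1, a relative of Nuak2, rose by 0.92 (7.63 to 8.55; adjusted p = 1.71e-05). For both genes the 70 min mean was close to control, 6.95 for Epha2 and 8.67 for Nuak1, so that the 4 h arrays were the low ones. Phlda1, a pleckstrin homology domain protein, was above control at 70 min (8.35 against 7.74), below it at 4 h (6.86) and at 7.88 at 8 h. Rgs4, which speeds the shut-off of G protein signals, rose by 0.99 and Cemip, a protein that takes part in hyaluronan breakdown, by 1.03. The rule that picked the 15 largest rises also gave the cysteine dioxygenase Cdo1 (0.96), the sulfotransferase Sult1a1 (0.88), Cimap1c (0.88) and Limch1, an actomyosin regulator (0.87).

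Histone genes had the deepest group fall, beside 1.54% called lower among all genes. Of 12 measured members of the histone list 7 were called lower and 0 higher, and all 12 log2 changes were below 0 (11 with the array median as a covariate, with array weights, without 4 h replicate 3 and without 8 h replicate 1), with a median of -0.73. A wider set of 41 histone symbols, assembled after the values were seen, held 16 called lower and 0 higher, with a median of -0.39. Many histone genes are near-identical, so an array probe can read several copies, and a value under 1 symbol may hold signal of others. Replication-dependent histones are made in S phase to package new DNA, and their promoters are known for CCAAT boxes, which NF-Y binds. The promoters of 3 strongly falling histone genes are therefore shown, each 300 bases from 250 before to 50 after the gene start, 5′ to 3′ on the gene's strand, taken from RefSeq on GRCr8, with CCAAT or its reverse complement in capitals. H2ac12 lies at chr17:47181943-47182242 (plus strand), H1f5 at chr17:47421625-47421924 (plus) and H2bc8 at chr17:47404155-47404454 (plus); they hold 3, 3 and 4 matches.
H2ac12: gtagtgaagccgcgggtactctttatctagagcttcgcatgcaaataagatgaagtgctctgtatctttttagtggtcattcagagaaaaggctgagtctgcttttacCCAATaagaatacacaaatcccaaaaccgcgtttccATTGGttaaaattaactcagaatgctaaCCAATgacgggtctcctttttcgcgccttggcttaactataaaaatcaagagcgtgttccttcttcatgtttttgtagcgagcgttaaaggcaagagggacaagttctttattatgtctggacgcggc
H1f5: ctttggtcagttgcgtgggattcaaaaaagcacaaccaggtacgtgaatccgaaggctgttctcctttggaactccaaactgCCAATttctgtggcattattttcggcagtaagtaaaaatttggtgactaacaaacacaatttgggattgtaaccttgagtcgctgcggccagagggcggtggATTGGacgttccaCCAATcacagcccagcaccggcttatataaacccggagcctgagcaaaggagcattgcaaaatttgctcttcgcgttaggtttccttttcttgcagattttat
H2bc8: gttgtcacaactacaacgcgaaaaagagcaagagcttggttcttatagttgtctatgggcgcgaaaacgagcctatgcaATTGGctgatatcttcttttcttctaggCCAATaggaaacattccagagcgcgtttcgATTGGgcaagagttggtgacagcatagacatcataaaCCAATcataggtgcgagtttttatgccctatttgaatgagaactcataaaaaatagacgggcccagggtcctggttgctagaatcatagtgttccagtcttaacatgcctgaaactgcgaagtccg

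H1f5, a linker histone, had values of 8.82, 8.58 and 8.43 at 4 h and 7.61, 7.32 and 7.48 at 8 h. The 8 h arrays lay within the control range of 7.24 to 7.65, and the change was -1.14 ± 0.13 (SE; adjusted p = 4.41e-05). H2bc8, a core histone H2B gene, fell by 1.13 on the log2 scale, from 9.63, 9.40 and 9.37 to 8.44, 8.47 and 8.08 (adjusted p = 1.86e-05). H2ac12, a core histone H2A gene, fell from 10.54, 10.54 and 10.41 to 9.65, 9.45 and 9.14 (adjusted p = 8.77e-06). Its promoter window shares 248 bases with that of H2bc12 on the minus strand, and H2bc12 fell too, from a mean of 10.75 to 10.02. H4c14 changed by -1.11 and ended at 9.38 (mean), against 10.01 in control, a difference from control of -0.63 ± 0.11 (SE) that was not called (adjusted p = 0.091). H2ac4, Hist1h3b and H1f1 changed by -1.10, -0.90 and -0.81. Further members of the list that fell, H2ax at -0.73 and H3f3b at -0.48, encode variant histones whose supply is not tied to S phase alone.

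DNA replication genes fell with the histones. All 38 measured members had a log2 change below 0 (37 without 4 h replicate 1), 18 were called lower and 0 higher, and the median was -0.40, where 1.54% of all genes were called lower. The count was 11 of 38 without 4 h replicate 1 and likewise 11 without 8 h replicate 2. E2F factors switch on many of these genes at the start of S phase. The promoters of 2 members are shown in the same frame, with matches to the E2F site TTTNNCGC on either strand in capitals: Dtl at chr13:105685872-105686171 (minus strand) with 1 match and Mcm5 at chr19:13488563-13488862 (plus) with 3, of which a pair overlaps.
Dtl: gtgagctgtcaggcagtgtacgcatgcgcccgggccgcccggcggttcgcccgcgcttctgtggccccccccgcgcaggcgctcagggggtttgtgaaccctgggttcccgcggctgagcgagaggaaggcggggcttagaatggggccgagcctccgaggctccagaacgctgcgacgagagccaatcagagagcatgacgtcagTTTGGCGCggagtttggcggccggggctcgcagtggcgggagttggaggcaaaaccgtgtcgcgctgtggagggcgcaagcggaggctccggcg
Mcm5: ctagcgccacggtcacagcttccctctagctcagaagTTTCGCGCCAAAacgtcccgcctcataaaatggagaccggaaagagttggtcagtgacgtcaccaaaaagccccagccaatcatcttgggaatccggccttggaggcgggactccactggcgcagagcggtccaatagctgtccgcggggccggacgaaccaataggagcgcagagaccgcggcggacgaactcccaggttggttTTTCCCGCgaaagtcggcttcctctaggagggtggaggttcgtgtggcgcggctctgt

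Dtl, the substrate receptor of a ubiquitin ligase that acts on chromatin-bound PCNA, fell the most of the list. It measured 7.51, 7.67 and 7.53 at 4 h and 6.57, 6.48 and 6.56 at 8 h, a change of -1.03 ± 0.10 (SE; adjusted p = 1.11e-05). Pcna, the sliding clamp of DNA polymerases, had values of 9.53, 9.45 and 9.39 at 4 h and 8.67, 8.60 and 8.79 at 8 h (-0.77, adjusted p = 8.23e-06). Mcm5, a subunit of the replicative helicase, went from 7.83, 7.87 and 7.67 to 7.13, 6.97 and 6.98 (-0.76, adjusted p = 4.41e-05). In all 3 genes the 4 h and 8 h arrays did not overlap, the 70 min means (7.85, 9.64 and 8.13) were the highest of the groups, and the control means (6.68, 8.81 and 7.07) were close to those at 8 h. Mcm10, a replication initiation factor, changed by -0.78. Outside the list, Clspn, the checkpoint adaptor claspin, changed by -0.86 and Mms22l, a factor in the repair of stalled forks, by -0.80. Members that were not called included Dut, a dUTPase, at -0.19.

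Other cell cycle lists moved less. Of 17 E2F factors and G1/S genes 4 were called lower and 1 higher (median -0.12). Mybl2, a cell cycle transcription factor, fell from 7.40, 7.29 and 7.25 to 6.59, 6.53 and 6.37 (adjusted p = 0.000294). Lin54, a DNA-binding subunit of the complex that works with Mybl2, changed by -0.78 on its brighter probe and by -0.20 on the other. The count of lower members was 1 of 17 without 4 h replicate 3 and 2 without any 1 of control replicates 1 and 2, 70 min replicate 2, 4 h replicates 1 and 2 and 8 h replicate 3. Without 8 h replicate 1 it was 3, though E2f7, E2f8 and Rbl1, which are cell cycle repressors, lost their calls (adjusted p of 0.116, 0.0534 and 0.0626). The higher member was Myc, a growth-promoting transcription factor, at 0.48 (adjusted p = 0.049), and its call was lost without any 1 of 9 arrays. Of 34 mitosis genes 33 had a change below 0 (median -0.19), but 1 was called, the cyclin gene Ccna2 at -0.37 (adjusted p = 0.0188). That call was lost without 4 h replicate 2, 8 h replicate 1 or 8 h replicate 2 (adjusted p of 0.0783, 0.0754 and 0.0538), and 4 mitosis genes were called lower without 4 h replicate 3, 3 without 8 h replicate 3, and 2 without 70 min replicate 1 or 2 or 4 h replicate 1. Over the other settings the count ran from 0, as with arrays centred on their medians, to 9 once the array median was a covariate. Of the 34, the number below 0 was 30 without 4 h replicate 2 and 31 without 8 h replicate 1. Cdkn1a, which encodes the cyclin-dependent kinase inhibitor p21, also fell, from 10.88, 10.72 and 10.76 to 10.36, 10.21 and 10.25 (-0.51, adjusted p = 3.78e-05).

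**Figure D3:**
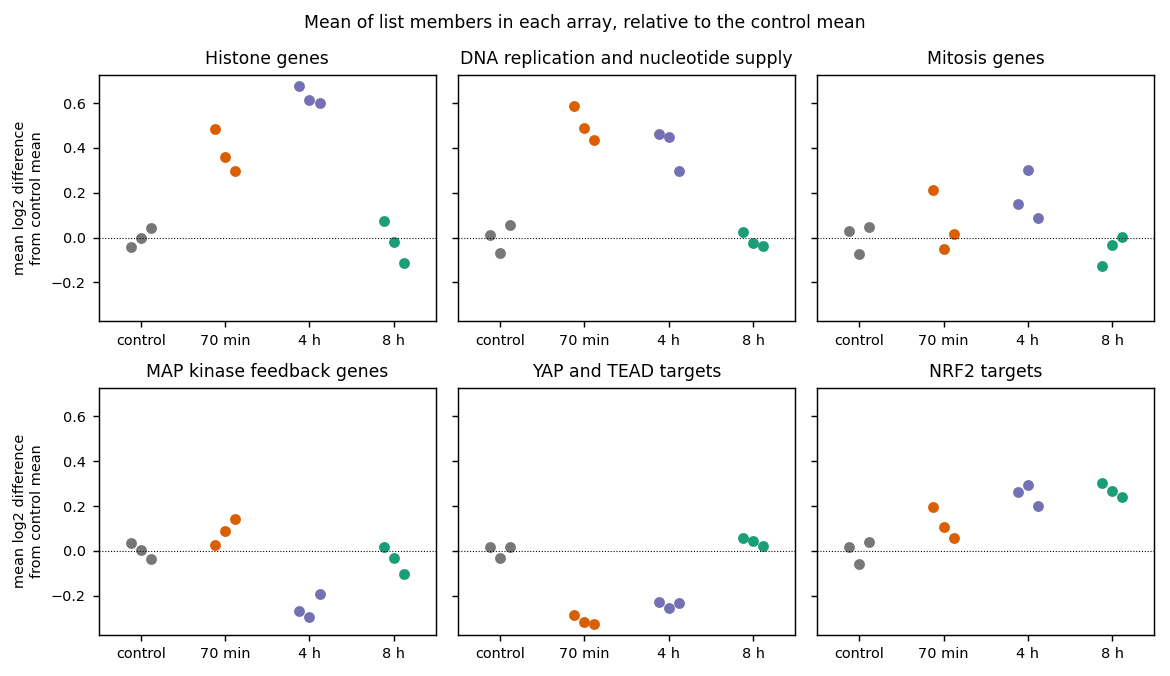
Mean log2 difference from the control mean over the measured members of 6 gene lists (vertical axis), 1 dot per array, in control, 70 min, 4 h and 8 h (horizontal axis). The histone arrays run from 0.60 to 0.68 at 4 h and from -0.12 to 0.07 at 8 h, the replication arrays from 0.30 to 0.46 and from -0.04 to 0.03, and the NRF2 arrays from 0.20 to 0.29 and from 0.24 to 0.30.

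The promoter letters were counted over all tested genes with a RefSeq window. CCAAT stood in 38.0% of 14503 windows, in 34.6% of 283 from genes higher at 8 h and in 55.7% of 230 from lower genes, or 52.8% of 216 with the histone symbols left out. It was present in 14 of 14 windows of histone symbols called lower, in 17 of 24 (70.8%) of those not called and in 11 of 15 (73.3%) of the replication genes called lower. TTTNNCGC, a motif added after the data were seen, stood in 6.6% of all tested windows, 5.7% of the higher and 18.7% of the lower, and in 7 of 15 (46.7%) of the replication genes called lower. For the other motifs the shares in all tested, higher and lower genes were 13.4%, 12% and 19.6% for the antioxidant element core TGACNNNGC, and 39.4%, 46.3% and 51.7% for the xenobiotic element core GCGTG. They were 2.4%, 1.8% and 5.7% for the cyclic AMP element TGACGTCA, 7.9%, 7.8% and 9.1% for the E-box CACGTG, and 15.9%, 11.7% and 12.6% for the cell cycle element TTTGAA. The sterol element TCACNCCAC stood in 1.1%, 0.4% and 1.7%. Both strands were searched, and a match is only a run of letters; base composition was not matched.

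Genes of the aryl hydrocarbon receptor, which senses planar aromatic ligands, included the largest fall of any gene named. Cyp1a1, its classic target and a cytochrome P450 enzyme, measured 6.43, 6.50 and 6.19 at 4 h and 4.77, 5.08 and 5.21 at 8 h, against 4.45, 4.51 and 4.85 in control. All 4 h arrays were well above all others, and the change was -1.35 ± 0.15 (SE; adjusted p = 3.78e-05). Cyp1b1, a related enzyme, fell from 8.26, 8.31 and 8.19 to 7.62, 7.48 and 7.77 (adjusted p = 0.000193), its highest mean having been at 70 min (8.77 against 7.50 in control). Of the 7 measured genes of this list 3 were lower and 1 higher, with a median of -0.34; the higher call was lost without control replicate 1, 4 h replicate 1 or 3 or any 8 h replicate. Mt1, a metal-binding metallothionein, fell from 9.68, 9.38 and 9.60 to 9.16, 9.04 and 8.93 (adjusted p = 0.00172, or 0.0892 with the mean of its probes). Mt1 was the called gene among 6 metallothionein and zinc transport genes.

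Of 23 measured targets of NRF2, which induces antioxidant enzymes, 1 was called higher and 2 lower, where 3.51% of all genes were called, and the median was 0.04. The lower count was 1 without 4 h replicate 3 or 8 h replicate 2. Nqo1, a quinone reductase, had values of 11.67, 11.71 and 11.67 at 4 h and 11.70, 11.65 and 11.66 at 8 h, and its difference was -0.01 ± 0.04 (SE; adjusted p = 0.944). Hmox1, the heme oxygenase that degrades heme, measured 8.98, 8.81 and 8.77 at 4 h and 9.08, 8.92 and 8.92 at 8 h (0.13 ± 0.08, adjusted p = 0.533). Abcc4, an efflux transporter of the ABC family, was the member that rose, from 9.18, 9.08 and 9.06 to 9.45, 9.33 and 9.45 (0.30 ± 0.07, adjusted p = 0.014). That call was lost without 4 h replicate 2 or 3 or 8 h replicate 1 or 3 (adjusted p from 0.0533 to 0.0574). Gclc, the catalytic subunit of the first enzyme of glutathione synthesis, was called lower at -0.40 (adjusted p = 0.00389, or 0.0599 with arrays centred on their medians), while its partner Gclm stood at -0.18 and was not called. Of 15 superoxide and peroxide scavenging enzymes 0 were called in limma's test, with 2 at an unadjusted p under 0.05 (median 0.08). Over all genes, 14.4% had an unadjusted p under 0.05 between 4 h and 8 h in the same test.

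Set directly against control, the 8 h arrays gave 5 called genes of 18166 (0.0275%), with 993 (5.47%) at an unadjusted p under 0.05. This comparison shares its 8 h arrays with the one above. The higher genes were 4 (0.022%) and the lower 1 (0.0055%). The higher ones were Abcc4 at 0.68 (adjusted p = 0.000113), Ptgr1, a prostaglandin reductase, at 0.65 (0.000772), Hmox1 at 0.64 (0.00152) and Nqo1 at 0.47 (0.000113). All are in the NRF2 list, but its members were chosen with earlier results of these data known, so their place in it is no independent result. Abcc4 had been below control at 70 min, at -0.66 (limma, adjusted p = 3.14e-06). Olr1, the oxidised LDL receptor LOX-1, was the lower gene, with means of 6.54 in control and 5.54 at 8 h (SE of the difference 0.11; adjusted p = 0.000551). It also fell between 4 h and 8 h, from 6.23, 6.18 and 5.98 to 5.48, 5.72 and 5.43 (-0.59, adjusted p = 0.00552), after a mean of 8.36 at 70 min. A gene not called here is not thereby shown to be at its control level. The difference from control at 8 h was 0.08 ± 0.07 for Ankrd1, -0.11 ± 0.09 for Egr1 and -0.22 ± 0.11 (SE) for Edn1.

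Secreted factors of the heart and of bone morphogenetic protein (BMP) signalling split by member. Bmp4, a BMP ligand, rose from 9.01, 8.87 and 8.89 to 9.73, 9.73 and 9.60 (0.77, adjusted p = 1.73e-06), and the related ligand Gdf6 rose by 0.87 (adjusted p = 0.000488). Id2, an inhibitor of helix-loop-helix factors and a known BMP target, fell from 5.68, 5.68 and 5.33 to 4.75, 4.71 and 4.42 (-0.94, adjusted p = 0.000741). Fst, the activin antagonist follistatin, fell by 0.67 (7.95 to 7.29; adjusted p = 0.000648). Of the 18 ID and BMP genes 2 were higher and 3 lower (median 0.04). Of 14 secreted and fetal programme genes 3 were higher and 1 lower (median 0.01). The natriuretic peptide genes Nppa (-0.18) and Nppb (0.04) and the stress cytokine Gdf15 (-0.29) were not called, and Lif, a cytokine of the interleukin-6 family, rose by 0.56 (6.17 to 6.73; adjusted p = 0.00539).

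The enzymes that clear asymmetric dimethylarginine, an inhibitor of nitric oxide synthases, moved in opposite directions. Ddah2 had values of 7.92, 7.90 and 7.85 at 4 h and 8.75, 8.77 and 8.67 at 8 h, a rise of 0.84 ± 0.07 (SE; adjusted p = 3.32e-06), with 8.67, 8.64 and 8.57 in control. Ddah1 measured 11.07, 10.93 and 10.87 at 4 h and 10.57, 10.43 and 10.49 at 8 h (-0.46 ± 0.05, adjusted p = 9.37e-05), with a control mean of 10.47. Both were thus away from control at 4 h, Ddah2 below it and Ddah1 above it. They were the called members of the 16 nitric oxide and cyclic GMP genes (median 0.05); 1 further member was called higher without 4 h replicate 2, and 1 other lower without 4 h replicate 1.

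Of 11 fatty acid synthesis genes 3 were higher and 0 lower (median 0.21), and these 3 were called in all 23 alternative fits. Fads2 reached 1.5-fold (1.77), while Fads1 (1.48) and Scd2 (1.33) did not. They were the desaturases Fads2, at 7.04, 6.89 and 6.78 at 4 h and 7.81, 7.79 and 7.59 at 8 h (0.82, adjusted p = 0.00219), Fads1 (0.56, adjusted p = 0.000162) and Scd2 (0.41, adjusted p = 0.00138). Each had its lowest mean at 70 min (6.35, 7.33 and 8.40, against 7.65, 8.31 and 9.40 in control). Of 17 cholesterol synthesis genes 4 were higher and 0 lower (median 0.05), of which Fdft1, squalene synthase, kept its call with any 1 array left out, at 0.41 (8.23 to 8.65; adjusted p = 0.00449). That count was 2 without 4 h replicate 3 or 8 h replicate 2 and 1 without 8 h replicate 1, and 1 member was called lower without 8 h replicate 3. Of 30 fatty acid oxidation genes 2 were higher (median 0.13), among them the isomerase Ech1 at 0.51 (8.15 to 8.66; adjusted p = 0.0023), and 1 was higher without 4 h replicate 2 or 3 or 8 h replicate 1 or 2.

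**Figure D4:**
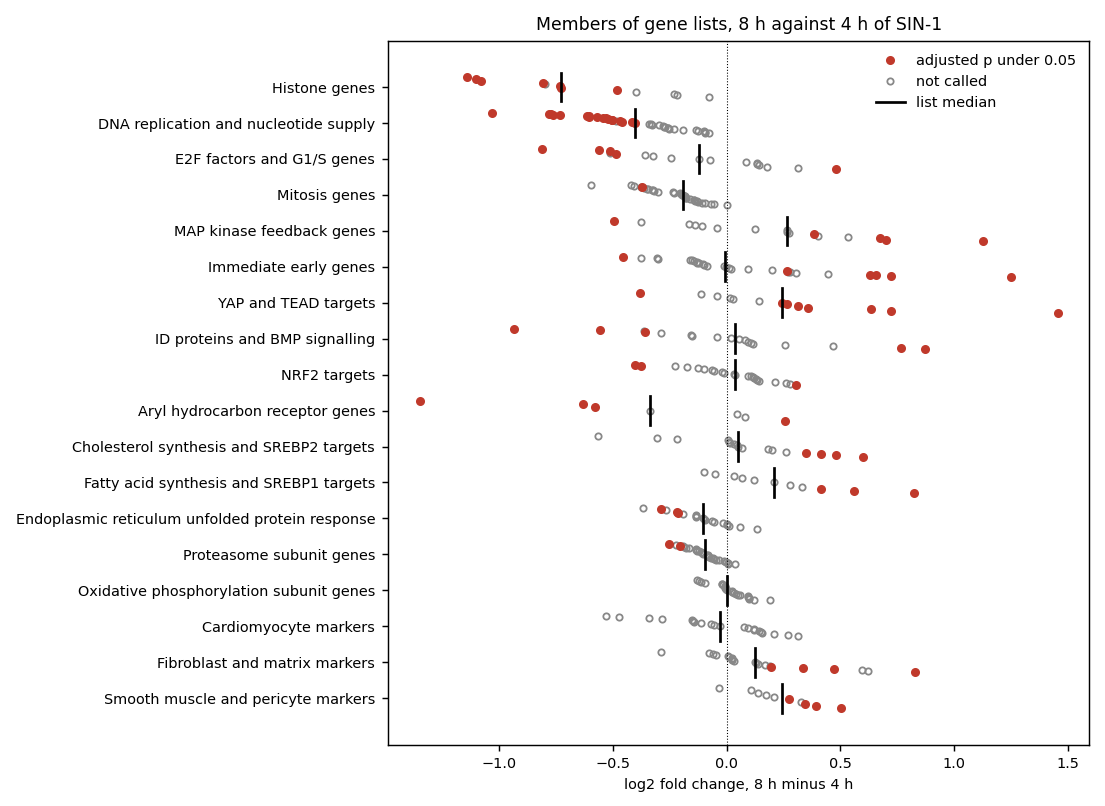
Log2 fold change from 4 h to 8 h (horizontal axis) of each measured member of 18 gene lists (vertical axis); filled dots passed an adjusted p of 0.05, open dots did not, and the black bar is the list median. Medians run from -0.73 for histone genes to 0.26 for MAP kinase feedback genes, and cardiomyocyte markers and oxidative phosphorylation genes have no filled dot.

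Marker lists of possible cell types moved unequally, but they also differed in level, so their counts of called members are not a like comparison. Median levels were 5.28 for cardiomyocyte, 4.48 for endothelial and 4.25 for macrophage markers, against 7.84 for smooth muscle and 8.56 for fibroblast markers. Uncalled log2 changes ran from -0.53 to 0.32 among cardiomyocyte and from -0.48 to 0.38 among endothelial markers. Over all genes, 1.97% were called higher and 1.54% lower, and 14.4% had an unadjusted p under 0.05 in limma's test. Of 21 cardiomyocyte markers 0 were called in limma's test, with 5 at an unadjusted p under 0.05 (median -0.03), and their mean level per array ran from 5.52 to 5.63 at 4 h and from 5.49 to 5.60 at 8 h. Of 10 smooth muscle and pericyte markers 4 were higher and 0 lower (median 0.24), with mean levels from 7.97 to 8.08 at 4 h and from 8.26 to 8.29 at 8 h. Lmod1, leiomodin, rose from 7.26, 7.41 and 7.24 to 7.83, 7.93 and 7.66 (adjusted p = 0.00258), and Pdgfrb, a receptor of platelet-derived growth factor, from 9.90, 9.95 and 9.83 to 10.38, 10.26 and 10.23 (adjusted p = 0.000459). Of 21 fibroblast and matrix markers 4 were higher and 0 lower (median 0.12), with mean levels from 8.27 to 8.36 at 4 h and from 8.42 to 8.56 at 8 h. Scara5, a ferritin receptor, led them, rising from 7.74, 7.62 and 7.58 to 8.46, 8.42 and 8.54 (0.83, adjusted p = 8.23e-06), while the collagen gene Col1a1 (0.02) was not called. Leaving out 1 array gave 2 to 5 higher smooth muscle markers (2 without 4 h replicate 3, 8 h replicate 2 or 8 h replicate 3) and 2 to 6 higher fibroblast markers (2 without 4 h replicate 1, 8 h replicate 2 or 8 h replicate 3, and 6 without 4 h replicate 2). Of 11 endothelial markers and of 16 macrophage markers 0 were called in limma's test, with 4 and 0 at an unadjusted p under 0.05 (medians -0.05 and 0.04); 1 endothelial marker was called lower without 70 min replicate 1. These shifts lie beside the changes of the signalling and cell cycle lists, and their part in those results was not tested.

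Guidance and matrix genes held a few further changes. Slit2, a secreted guidance ligand, rose from 8.53, 8.65 and 8.49 to 8.94, 9.14 and 9.12 (adjusted p = 0.00105), and Timp3, an inhibitor of matrix proteases, from 9.83, 9.59 and 9.58 to 10.10, 10.23 and 10.23 (adjusted p = 0.000193). The ephrin receptor Epha4 fell from 7.33, 7.47 and 7.43 to 6.82, 6.89 and 6.85 (adjusted p = 0.00219), opposite to Epha2. Of the 28 guidance genes 2 were higher and 3 lower (median 0.03), with 1 lower without 8 h replicate 2. Glb1l2, a member of the beta-galactosidase family, was among the 15 largest falls at -0.93 (7.68 to 6.75; adjusted p = 2.17e-05). Jph2, a junctophilin that couples surface and reticulum membranes in muscle, rose from 6.99, 7.08 and 6.99 to 7.66, 7.60 and 7.50 (adjusted p = 0.0006), the called gene among 16 calcium cycling genes; 1 member was called lower without 4 h replicate 1.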

How the data were processed

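RNA of 12 samples of primary rat cells, 3 each from control and from 70 min, 4 h and 8 h of SIN-1, was amplified with a kit for whole transcripts and read on arrays with a single biotin label, as the labels' protocols say. Per the submitters' processing notes, the authors made the deposited log2 values in Affymetrix Expression Console (version 1.3.1.187), by RMA; no unit is stated, and the log2 scale of the 36685 probes was inferred from their range of 1.19 to 13.63. RMA equalises array distributions before values are summarised per probe, so differences in total RNA are removed. Medians of the deposited arrays were still not equal, from 4.98 in 4 h replicate 2 to 5.12 in 70 min replicate 3. The other 4 h arrays had 4.99 (replicate 1) and 5.09 (replicate 3), and the 8 h arrays 5.00, 4.99 and 5.01. A build is not given in the sources used here.

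The platform table gave 18511 probes 1 gene symbol; 575 with several and 17599 unlisted probes were left out. Of the named probes 18394 matched a gene in RefSeq's GRCr8 table. For 291 genes with more than 1 probe the brightest was kept, leaving 18166. Group means over all 12 arrays were fitted in limma 3.58.1 (R 4.3.3; eBayes with trend, 8 residual degrees of freedom, two-sided, Benjamini-Hochberg within a comparison); the median SE of the difference was 0.131. Control and 4 h or 8 h arrays recur in several comparisons. Correlations within the 4 h and within the 8 h group ran from 0.9906 to 0.9950. Tested on simulated data for 8 h against 4 h over 18166 genes, the fit found 95% of 80 genes given a log2 change of 1, 43.8% of 80 given 0.5 and 7.5% of 40 given 0.3, and 5 genes were called falsely. The simulated noise was normal and independent between genes, and the number of changed genes was set in advance. These shares therefore need not hold for the real arrays.

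The members and the 41 gene lists (771 of 851 distinct members measured) were chosen with earlier results of these data known. A naming rule took the 15 largest rises and 15 largest falls among called, non-overlapping genes. Their mean in the higher group had to reach the median of gene means, 5.75. Unnamed loci, receptors of smell and small RNAs were passed over. It also took up to 4 called members per list and direction, or 2 members where none was called, and always a set of stress and cardiac genes. With the later choices this gave 116 called genes, while the text names 74. No rule set which list members were left out, Junb, Nr4a2 and Cavin2 among them. Genes named outside this rule (Abcc4, Ptgr1 and Olr1 as called at 8 h against control, the histones H2ax, H3f3b and H2bc12, and uncalled list members given as values) were chosen after their values were seen. Alternatives were the replicate block, other prior variances, array weights, other scalings, an intensity filter, other uses of probes, the 6 arrays alone, fold thresholds and each array left out. Promoter windows came from RefSeq; 14503 tested genes had one.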

Additional observations from a re-analysis of the deposited data

How the results depend on the processing

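Of 74 called genes named in the text, 60 were called under all 23 alternative fits. Of the 116 called genes that the naming rule and the later choices gave, 65 were, so the genes in the text are the steadier part. The 637 called genes became 315 without a trend in the prior variance, 300 with arrays centred on their medians, 330 with the 6 compared arrays alone, 149 with a fold of at least 1.5 added, 200 with that fold and an unadjusted p, and 299 to 671 with 1 array left out. Under the same settings the 358 higher genes became 194, 199, 191, 86, 105 and 173 to 380, and the 279 lower genes 121, 101, 139, 63, 95 and 126 to 291; with the array median as a covariate 427 were lower. The 60.9% of higher genes that were lower at 70 min became 54.7% with that covariate, 54.7% over all probes and 55.2% to 64.1% with 1 array left out, and the 69.2% of lower genes became 62.9% to 78.7%. Nqo1, near 0, turned to 0.010 on centring and ran from -0.029 to 0.000 with 1 array left out; Nppb ran from -0.045 to 0.122. The 5 genes called against control at 8 h became 37 with array weights, 9 with the replicate block and 2 without a trend. Labels number the replicates alike in each group but do not say that a number is a shared culture, so the numbers were not taken as pairs. Deviations of same-numbered 4 h and 8 h arrays correlated at 0.226, 0.122 and 0.011, and those of differently numbered arrays at -0.261 to 0.178. These values do not settle whether the arrays were paired. The replicate block gave 622 genes, 583 of them among the 637. The cause of these differences was not tested. With 3 arrays a group, changes of 0.3 were mostly missed in the simulated data, and Dusp6, Id2 and Cyp1a1 lie at low signal.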

Other observations

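Counts for further lists stand beside 3.51% called among all genes. Of 20 genes of the endoplasmic reticulum unfolded protein response 3 were lower and 0 higher (median -0.10), and 1 was lower without any 1 of control replicate 1, 70 min replicate 2, the 4 h replicates and 8 h replicate 2; Hspa5, the lumenal chaperone BiP, fell from 11.54, 11.53 and 11.54 to 11.21, 11.23 and 11.30 (limma, adjusted p = 0.000569, or 0.07 without a trend in the prior variance). Of 30 proteasome subunit genes 27 had a log2 change below 0 (23 to 30 over the alternatives) and the median was -0.10. The 2 called lower became 1 without control replicate 3 or 4 h replicate 1 or 3, and 0 without control replicate 1, 4 h replicate 2 or any 8 h replicate. Of 29 ATF4 and amino acid response genes 3 were higher and 2 lower (median 0.03), the higher count being 1 without 4 h replicate 2 and the lower 1 without 4 h replicate 1 or 3 or 8 h replicate 2 or 3; Nupr1, a stress-induced chromatin protein, rose from 10.66, 10.61 and 10.40 to 11.11, 11.03 and 11.13 (adjusted p = 4.76e-05). Of 25 oxidative phosphorylation subunit genes 0 were called in limma's test and 1 had an unadjusted p under 0.05, where 14.4% of all genes did. Their changes ran from -0.13 to 0.19, with a median of 0.00. Clock genes had 2 higher and 0 lower of 16; the higher count was 1 without 4 h replicate 1 or 3 or 8 h replicate 1 and 0 without 8 h replicate 2. The heat shock, p53, BCL2, NF-kB, interferon, hypoxia, ion channel, cAMP feedback, ribosome biogenesis, matrix protease, TGF-beta and Wnt, and Notch lists each had 0 to 2 called members in a direction, with 1 array left out as with all 12. Medians of these lists lay between -0.09 and 0.04, and the median of the clock list was 0.11.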
